A study of Homo sapiens with 4 samples.

Results

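Epithelial-pole cells were the MCF10A cells with the lowest difference between mesenchymal and epithelial marker levels on their plate. MCF10A is an untransformed human mammary epithelial line, here carrying an H2B-GFP marker. The members were chosen by measured values: for each cell, the mean of ln(1 + counts per 10000) over CDH1, EPCAM, CD24, AP1M2 and CLDN7 was subtracted from the same mean over FN1, VIM, EMP3, TPM2 and SNAI2, and the lowest 25% of cells of each plate were taken. This gave 284 of 1146 cells. The plates held 72, 67, 72 and 73 of them, in the order used throughout for values from the 4 plates: low-resolution replicates 1 and 2, then high-resolution replicates 1 and 2. The cells with the middle 50% of values on the same plate (578 cells) served as the comparison and are called the middle class. The highest 25% (284 cells) are called the opposite pole.

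Each plate held single cells sorted from circular patches of 10000 seeded cells that had grown for 6 days on fibronectin-coated glass-bottom dishes, in medium with equine serum, EGF, hydrocortisone, cholera toxin and insulin. In the low-resolution experiment the patches were phototagged in 3 concentric rings 1000 to 1500 µm wide, and in the high-resolution experiment in an outermost band of 250 µm, a next band of 250 µm and the inside. All plates came from this 1 cell line in the same medium, with no untreated or other control group. Each experiment had 2 biological replicates, and the plate was the replicate here (n = 4). The region from which each well was sorted was not analysed here.

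Epithelial cells are held together by tight junctions, adherens junctions and desmosomes, and have an apical and a basal side. In epithelial-mesenchymal transition (EMT) such cells lose junctions and polarity and gain matrix, intermediate filament and motility genes, under transcription factors such as SNAI2, ZEB1 and ZEB2. Cells can stop at states in between. MCF10A cells are known to carry both luminal and basal mammary markers, and their state varies with cell density.

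The 4 plates held 11709628 to 14992348 deposited counts, and the cells that passed the filters had medians of 30520 to 41248 counts. All plates used the same set of 384 well barcodes, so barcodes shared between plates did not identify shared cells. No doublet caller was run, since cells were sorted singly into wells.

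The plates differed in how the cells were spread over the marker difference. On the low-resolution plates, 59.5% and 64.6% of cells had a marker difference under 0, against 39.2% and 42.3% on the high-resolution plates. The pole therefore reached further into the epithelial side in the low-resolution experiment. Its median marker difference was -1.36, -1.39, -1.10 and -0.99 on the 4 plates. The middle class had medians of -0.59, -0.73, 0.63 and 0.43, so that it lay mostly on the epithelial side in the low-resolution plates (68.7% and 78.8% of its cells under 0) and mostly on the mesenchymal side in the high-resolution plates (28.6% and 34.7%). The step from pole to middle class was 0.767, 0.665, 1.73 and 1.42 on the marker scale. All comparisons with the middle class carry this difference. At the limit of the pole, the last cell inside and the first outside differed by 0.0037 to 0.0081, and lay at -1.06 and -1.06, -1.18 and -1.18, -0.743 and -0.735, and -0.662 and -0.657. The pole is thus the end of a range and has no gap at its edge.

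**Figure D1:**
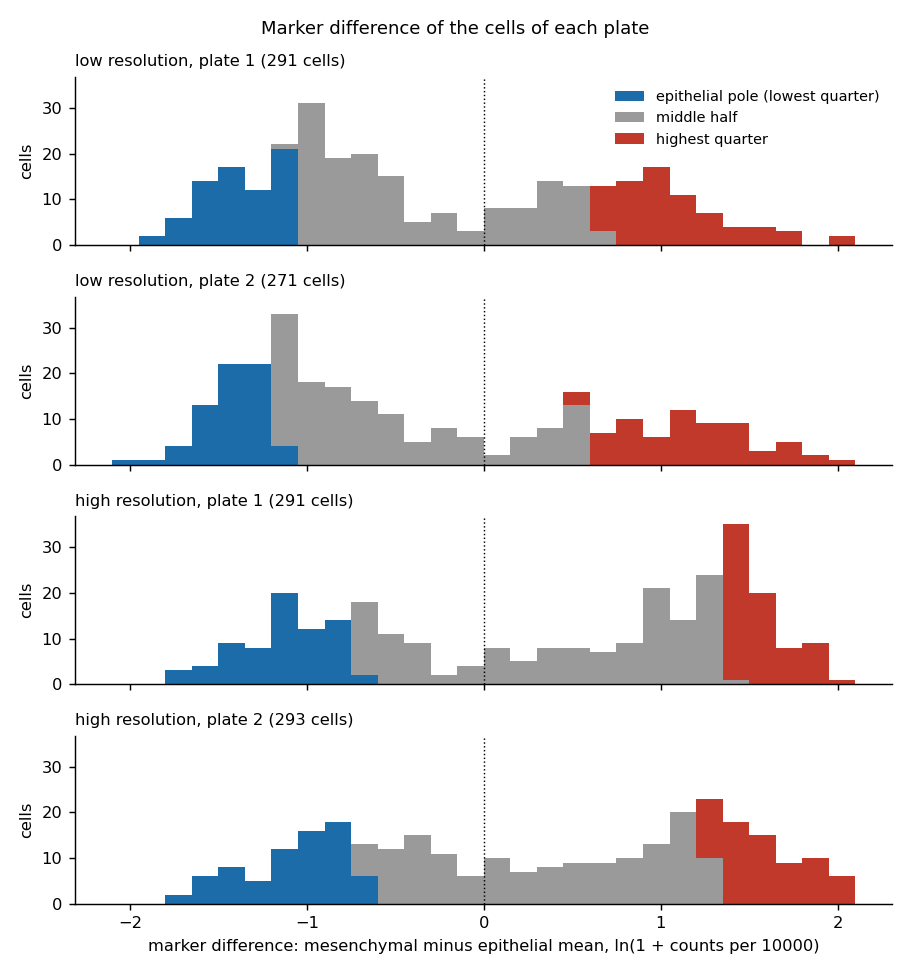
Number of cells (vertical axis) by marker difference (horizontal axis, mesenchymal minus epithelial mean of ln(1 + counts per 10000)) on each of the 4 plates, with the epithelial pole in blue, the middle class in grey and the opposite pole in red. The middle class lies mostly left of 0 on the low-resolution plates and mostly right of 0 on the high-resolution plates.

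The 10 genes of the rule are given as a description, without a test. CD24, a surface glycoprotein of epithelial cells, was the most abundant, with 40.3, 37.5, 34.2 and 25.4 counts per 10000 in the pole and 10.7, 13.5, 9.94 and 9.01 in the middle class. CDH1, the cadherin of epithelial adherens junctions, had 1.45, 1.40, 1.02 and 1.04 counts per 10000 in the pole. EPCAM, an epithelial adhesion protein, had 1.54, 1.65, 2.25 and 2.02. CDH1 and CD24 were highest on the low-resolution plates and EPCAM on the high-resolution plates. Each of the 5 epithelial genes was found in at least 92.5% of pole cells on every plate.

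The mesenchymal genes of the rule were low in the pole but not all absent. VIM, the intermediate filament vimentin, had 0.0525, 0.0327, 0.0632 and 0.0519 counts per 10000 and was found in 10.4 to 22.2% of pole cells. FN1, which encodes fibronectin, had 0.275, 0.246, 0.490 and 0.398 counts per 10000 and was found in 47.2%, 37.3%, 73.6% and 69.9% of pole cells. In the opposite pole FN1 was found in 100% of cells on all 4 plates, with 13.7 to 19.5 counts per 10000. Wells hold 1 sorted cell each, and how much RNA from other cells a well received was not measured. The pole of the high-resolution plates held more FN1, EMP3, TPM2 and SNAI2 than that of the low-resolution plates, while the VIM values overlapped. These genes are part of the rule, and the limit of the pole lay at a higher marker difference on the high-resolution plates. The values therefore carry the choice of cells and are a description only. When the members were chosen instead by the other genes of a 65-gene epithelial and a 115-gene mesenchymal panel, 68.1%, 65.7%, 84.7% and 84.9% of the cells were the same. With members chosen that way, CDH1 had a mean over the 4 plates of 1.14 counts per 10000 in the pole and 0.570 in the middle class, and VIM had 0.0585 and 0.692. EPCAM was then higher in the pole than in the middle class on 3 plates and lower on 1 (log2 difference 0.72). The log2 difference of FN1 was -2.28, in place of -3.37 with members chosen by the rule.

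Compared with the middle class, 1476 of 10590 genes tested were higher in the pole (13.9%) and 1562 were lower (14.7%), by edgeR's quasi-likelihood test at an adjusted p below 0.05, with the plate as a block. Without high-resolution replicate 2, 909 genes were lower. Counts were summed over the cells of a class, so fewer cells with a transcript and less of it per cell cannot be told apart in these values. The largest rises were in genes of cornifying squamous epithelium, kallikrein proteases and secretory or transport proteins. The largest falls were in matrix, protease inhibitor, receptor and metallothionein genes. The largest of each are described here.

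SPRR3 and SPRR1B, small proline-rich proteins of the cornified envelope, rose most among genes with at least 0.5 counts per 10000 in the higher class. SPRR1B had 3.02, 1.76, 1.85 and 1.43 counts per 10000 in the pole and 0.198, 0.336, 0.221 and 0.0929 in the middle class. The groups did not overlap, and the difference was 10.3-fold (log2 3.37 ± 0.22, SE; adjusted p = 5.17e-07). SPRR3 had 1.78, 0.896, 0.478 and 0.264 counts per 10000 in the pole and at most 0.100 in the middle class (14.2-fold, log2 3.82 ± 0.31, adjusted p = 2.01e-06). These transcripts came from few cells. With each cell thinned to 10000 UMIs (unique molecular identifiers), SPRR3 was found in 25.4%, 20.9%, 7.14% and 4.17% of pole cells, against 1.37 to 6.67% of middle cells, and without thinning in 36.1%, 38.8%, 19.4% and 10.96% of pole cells. The highest single cell held 32.7 to 57.5% of the pole's SPRR3 counts on each plate. When each cell had equal weight (limma on plate means of ln(1 + counts per 10000)), the SPRR3 difference kept its call (0.21 on that scale, adjusted p = 0.000474).

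KLK5, KLK6, KLK7 and KLK8, secreted serine proteases of the kallikrein family that act in skin shedding, rose as well, and KLK5 was found in nearly all pole cells. KLK5 had 34.4, 35.0, 20.1 and 22.6 counts per 10000 in the pole and 12.3, 12.3, 2.17 and 1.76 in the middle class (log2 2.48 ± 0.29, adjusted p = 3.55e-05). At 10000 UMIs a KLK5 transcript was found in 98.6 to 100% of pole cells, in 54.1 to 88.9% of middle cells and in 38.4 to 75.8% of cells of the opposite pole. KLK7 had 37.5, 31.4, 15.4 and 17.5 counts per 10000 in the pole and 9.96, 8.30, 1.15 and 0.918 in the middle class (log2 2.93 ± 0.33, adjusted p = 2.22e-05). KLK6 (log2 2.72 ± 0.33) and KLK8 (2.56 ± 0.25) were less abundant, with 2.18 to 3.62 and 1.43 to 3.23 counts per 10000 in the pole. The pole levels of these 4 kallikreins were higher on both low-resolution plates than on either high-resolution plate.

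The KLK genes lie beside each other at chr19:50943303-51020097 (GRCh38, from KLK5 to KLK10), and SPRR1A, SPRR3, SPRR1B and SPRR2D at chr1:152984081-153041120. All 6 KLK genes and all 4 SPRR genes with enough counts to test were higher in the pole, beside 13.9% of all genes tested. KLK5, KLK6, KLK7, KLK8, SPRR3 and SPRR1B were already named for their large rises, so these counts are no separate support. KLK9 had a log2 difference of 1.99 ± 0.51 (adjusted p = 0.00922) and SPRR2D one of 1.38 ± 0.32 (adjusted p = 0.00539). KLK9 and SPRR2D were named after their values were seen. Since KLK9 had 0.121 counts per 10000 and abundant neighbours, and the way reads were assigned to genes of the cluster is not given in the sources used here, its value is uncertain.

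AZGP1, a secreted zinc-binding glycoprotein, had 22.2, 26.7, 12.3 and 16.6 counts per 10000 in the pole and 7.28, 9.66, 1.29 and 1.10 in the middle class (log2 2.56 ± 0.31, adjusted p = 4.12e-05). MYH14, a non-muscle myosin heavy chain, had 0.756, 0.606, 0.513 and 0.312 counts per 10000 in the pole against 0.0232 to 0.164 (log2 2.89 ± 0.22, adjusted p = 1.53e-06). SLC6A14, an amino acid transporter (log2 2.76 ± 0.25), TCN1, a vitamin B12 carrier (2.71 ± 0.31), CLDN8, a claudin of tight junctions (2.27 ± 0.35), and MACC1, a regulator of the MET receptor gene (2.21 ± 0.14), completed the 12. A pole value above the middle value of the same plate, on all 4 plates, was a condition for naming these 12.

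The 3 promoters shown were picked because they hold the most matches, among the epithelial genes of the rule and the 24 named genes, to the E-box CACCTG, which reads CAGGTG on the other strand, letters that SNAI2 and ZEB1 are known to bind. They are from RefSeq (GRCh38.p14), from 250 bases before to 50 after the start of the gene, on the strand of the gene, with E-boxes in capitals. AP1M2, an adaptor subunit for basolateral sorting, is at chr19:10587263-10587562 (minus strand), SPRR1B at chr1:153030953-153031252 (plus strand) and MACC1 at chr7:20217335-20217634 (minus strand).
AP1M2: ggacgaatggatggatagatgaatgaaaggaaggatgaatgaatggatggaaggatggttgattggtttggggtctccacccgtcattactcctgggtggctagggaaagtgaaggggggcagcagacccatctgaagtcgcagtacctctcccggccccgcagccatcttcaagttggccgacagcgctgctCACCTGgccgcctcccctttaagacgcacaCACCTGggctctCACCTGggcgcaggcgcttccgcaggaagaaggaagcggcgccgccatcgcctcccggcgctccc
SPRR1B: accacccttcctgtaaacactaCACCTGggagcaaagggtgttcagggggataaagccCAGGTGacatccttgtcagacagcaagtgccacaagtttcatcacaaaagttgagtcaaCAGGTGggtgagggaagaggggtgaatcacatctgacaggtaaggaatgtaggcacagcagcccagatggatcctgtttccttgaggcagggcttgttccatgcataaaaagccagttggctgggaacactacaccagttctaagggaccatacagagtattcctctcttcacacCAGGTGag
MACC1: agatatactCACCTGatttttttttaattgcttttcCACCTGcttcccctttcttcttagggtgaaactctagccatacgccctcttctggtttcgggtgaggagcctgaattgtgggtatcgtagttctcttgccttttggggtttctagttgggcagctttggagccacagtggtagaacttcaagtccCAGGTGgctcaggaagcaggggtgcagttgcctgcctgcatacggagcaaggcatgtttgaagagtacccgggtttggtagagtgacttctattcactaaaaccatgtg
They hold 3, 4 and 3 E-boxes. Among all 27305 promoters listed, 20.6% held at least 1 of these E-boxes, and among the 8183 tested genes with a promoter listed, 17.9% did. The share was 26.4% of 1089 promoters of genes higher in the pole and 12.9% of 1231 promoters of genes lower in it. Of the 12 largest rises, 5 of the 10 with a promoter held an E-box, and of the 12 largest falls, 1 of 7. The letters AACCGGTT, which grainyhead-like factors are known to bind, were in 0.117% of all promoters and in none of the promoters of the named genes. These shares are descriptions of the windows, were not tested, and do not show binding.

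SERPINE2, a secreted inhibitor of thrombin and urokinase, fell most among genes outside the rule with at least 0.5 counts per 10000 in the higher class. It had 0.202, 0.160, 0.449 and 0.461 counts per 10000 in the pole and 1.00, 0.716, 5.98 and 4.45 in the middle class (log2 -2.96 ± 0.38, adjusted p = 6.94e-05). In the opposite pole it lay between 11.1 and 16.5. Pole and middle values did not overlap, although the middle class of the low-resolution plates came near the pole of the high-resolution plates.

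MT2A, a metal-binding metallothionein, fell as well. Its levels were 2.20, 2.46, 5.79 and 5.49 counts per 10000 in the pole and 14.3, 13.9, 37.3 and 33.8 in the middle class (log2 -2.55 ± 0.18, adjusted p = 6.64e-07). MT1E, of the same family, had a log2 difference of -2.04 ± 0.17. The step was alike in both experiments: for MT2A the log2 difference was -2.49 in the low-resolution and -2.58 in the high-resolution plates.

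Surface receptors and matrix genes made up most of the other falls. NT5E, the ecto-5'-nucleotidase CD73, had 0.133, 0.164, 0.367 and 0.509 counts per 10000 in the pole and 0.756, 0.807, 3.70 and 3.29 in the middle class (log2 -2.67 ± 0.28, adjusted p = 1.70e-05). AXL, a receptor tyrosine kinase, had a log2 difference of -2.81 ± 0.34, S1PR3, a sphingosine 1-phosphate receptor, -2.63 ± 0.21, and AMIGO2, an adhesion protein, -1.91 ± 0.31. TGFBI, a matrix protein induced by TGF-beta, fell by 2.30 (SE 0.21), and COL8A1, a collagen chain, by 2.19 (SE 0.28). SRGN, the proteoglycan serglycin, fell by 2.95 (SE 0.40) and TGM2, a protein-crosslinking transglutaminase, by 2.83 (SE 0.33). A pole value below the middle value of the same plate, on every plate, was a condition for naming these 12 genes.

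**Figure D2:**
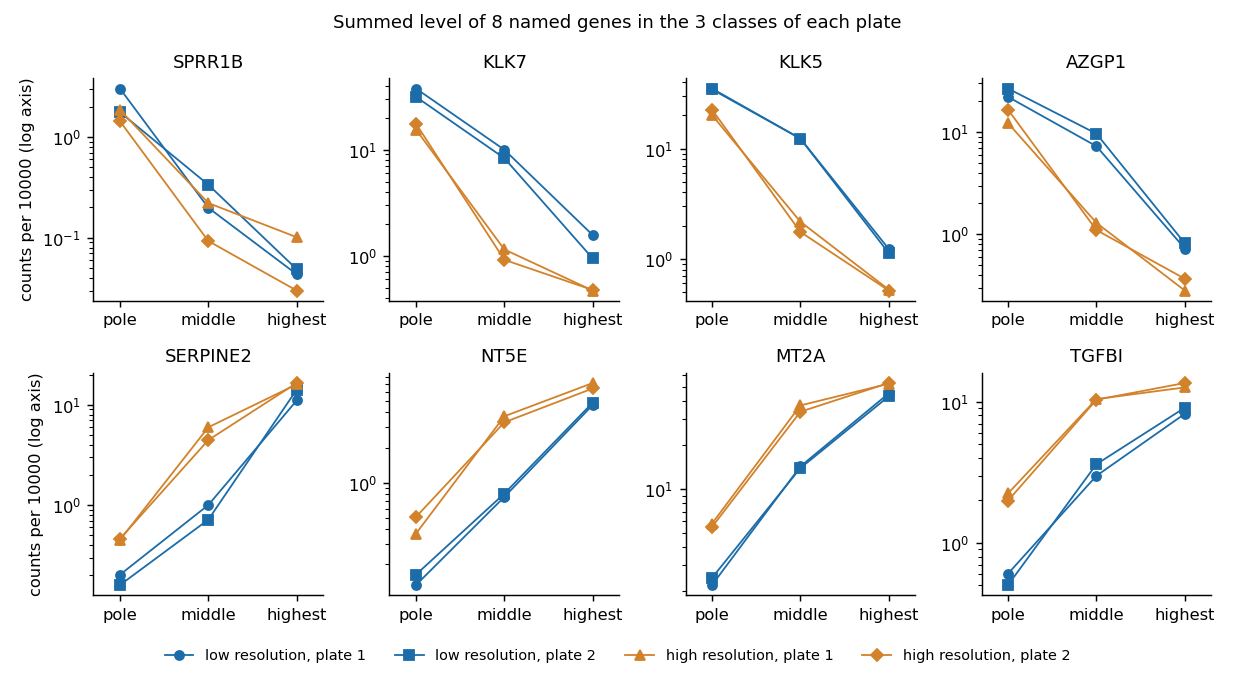
Level of 8 named genes (counts per 10000, log axis, counts summed over cells) in the pole, the middle class and the opposite pole, with 1 line for each of the 4 plates. The 4 genes in the upper row decrease from the pole to the opposite pole on every plate and the 4 in the lower row increase, and the middle class of the high-resolution plates lies closer to the opposite pole.

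The gene lists below are described by how many tested members were called, beside 13.9% and 14.7% of all genes, and by their median log2 difference, beside -0.01 for all genes. The 10 rule genes were left out of every list.

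Tight junction, desmosome and polarity genes were mostly higher in the pole. Of 15 tight junction genes tested, 11 rose and 1 fell (median log2 0.86). OCLN, the transmembrane protein occludin, had 0.675, 0.642, 0.522 and 0.495 counts per 10000 in the pole and 0.231, 0.264, 0.118 and 0.118 in the middle class (log2 1.81 ± 0.14, adjusted p = 1.53e-06), and the claudin CLDN4 rose by 1.68 ± 0.14. MARVELD1 fell by 0.70 (SE 0.17). Of 10 desmosome genes, 7 rose and 1 fell (median 0.71), among them DSP (desmoplakin, 1.06 ± 0.10) and DSC2 (a desmosomal cadherin, 1.71 ± 0.19), while PKP2, a plakophilin, fell by 0.95 (SE 0.20). Of 24 genes of apical polarity and traffic, 17 rose and 0 fell (median 0.90), with MYO5B, a myosin of recycling endosomes, at 1.30 ± 0.11. The differences were smaller against the other cells of the same plate with a marker difference under 0. There 7 tight junction genes were higher and 1 lower of 15 (median 0.73). Of 10 desmosome genes 5 were higher and 1 lower (0.37), and of 24 polarity genes 15 and 0 (0.55). Adherens junction genes outside the rule had 4 higher and 5 lower of 11. The number that was lower rested on single plates: it was 3 without low-resolution replicate 1, 2 without high-resolution replicate 1 and 1 without high-resolution replicate 2, and within the low-resolution plates 4 were higher and 1 lower of 10. There NECTIN4 rose by 1.28 ± 0.21 and NECTIN3 fell by 2.00 (SE 0.30).

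Epithelial serine proteases and their inhibitors had 16 higher and 1 lower of 18 (median 1.53). SLPI, a secreted leukocyte protease inhibitor, had a mean of 12.4 ± 5.04 counts per 10000 (SD, n = 4 plates) in the pole and 5.36 ± 2.68 in the middle class (log2 1.35 ± 0.11, adjusted p = 1.69e-06). PRSS23 fell by 0.79 (SE 0.15). Of 19 epithelial transcription and splicing regulators, 14 rose and 0 fell (median 0.84). Against the other cells with a marker difference under 0, 10 were higher and 0 lower (median 0.49). ELF3, an epithelial ETS factor, rose from 1.24 ± 0.77 to 3.57 ± 0.96 counts per 10000 (log2 1.77 ± 0.18, adjusted p = 1.09e-05), and GRHL1, a grainyhead-like factor, by 1.80 ± 0.24.

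Among 11 EMT transcription factors, 3 were higher and 4 lower. Within the low-resolution plates 4 were higher and 2 lower, and within the high-resolution plates 2 and 6 of 12. The pole was also compared with the other cells of the epithelial side, those of the same plate with a marker difference under 0. In that comparison 4 of 11 were higher and 0 lower (median 0.12), so the falls given here were not called there. SOX9 (log2 0.73 ± 0.10), KLF8 (1.17 ± 0.21) and FOXC1 (0.39 ± 0.14, adjusted p = 0.0472) rose. ZEB2 (-2.24 ± 0.34, adjusted p = 0.000233), TWIST1 (-0.68 ± 0.13) and TWIST2 (-0.96 ± 0.20) fell. The fourth that fell was ZEB1, named after its values were seen, with 0.0102 counts per 10000 in the pole and 0.0430 in the middle class (log2 -1.99 ± 0.43, adjusted p = 0.00342), a level at which few cells hold a transcript.

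Luminal mammary markers had 11 higher and 1 lower of 14 (median 1.28) and basal markers 2 higher and 8 lower of 17 (median -0.36). ALDH1A3, an aldehyde dehydrogenase of luminal progenitors, had 4.43 ± 0.97 counts per 10000 in the pole and 1.23 ± 0.85 in the middle class (log2 2.17 ± 0.24, adjusted p = 2.61e-05). AREG, an EGF receptor ligand listed as luminal, fell by 0.99 (SE 0.14). Of the basal markers, KRT17 (0.66 ± 0.13) and KRT15 (1.13 ± 0.29) rose. Against the other cells of the epithelial side, 0 basal markers were higher and 7 lower of 17 (median -0.3), so neither was called higher there. KRT15 had 16.8, 14.3, 13.7 and 19.2 counts per 10000 in the pole and 14.6, 13.98, 3.61 and 5.84 in the middle class, and within the low-resolution plates it was not called (log2 0.22, adjusted p = 0.129, against 1.89 in the high-resolution plates). CAV1, the caveolae protein, fell from 17.0 ± 3.06 to 8.87 ± 1.73 counts per 10000 (log2 -0.86 ± 0.09, adjusted p = 1.16e-05) and ITGB1, the integrin beta-1 chain, by 0.67 (SE 0.12). The basal keratins KRT5 and KRT14 were not called, with log2 differences of -0.26 ± 0.15 and -0.82 ± 0.36 (adjusted p = 0.220 and 0.104). KRT5 and KRT14 were named after their values were seen.

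Squamous and cornified envelope genes had 12 higher and 0 lower of 16 tested (median 1.29), 16 others of the 32 found in the files being too low to test. SPRR1A, also of the cornified envelope, rose by 3.18 ± 0.22 (adjusted p = 5.78e-07). A list of 24 genes linked to epithelial density, put together with earlier results of these data known, had 11 higher and 1 lower of 16 (median 1.76). PSCA, a surface antigen of secretory epithelia, had 38.5, 42.5, 17.0 and 17.7 counts per 10000 in the pole and 12.3, 13.4, 4.61 and 4.28 in the middle class (log2 1.87 ± 0.16, adjusted p = 3.56e-06). The pole and middle values did not overlap. CA2, a carbonic anhydrase, rose by 1.92 ± 0.17, and CA12, of the same enzyme family, fell by 3.21 (SE 0.45).

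Matrix and cytoskeleton genes were lower more often than higher. Of 27 extracellular matrix and matricellular genes, 3 rose and 17 fell (median -0.77), and of 12 integrins 2 rose and 6 fell (median -0.36). ITGB6, the beta chain of an epithelial integrin, rose by 1.25 ± 0.12, and ITGA5, part of the fibronectin receptor, fell by 1.89 (SE 0.23). FBLN1, a fibulin, fell by 1.04 (SE 0.10), while COL17A1, a hemidesmosome collagen, rose by 0.58 ± 0.17. Of 11 genes of the plasminogen activator and matrix protease inhibitor list, 1 rose and 6 fell (median -1.31). TIMP1, a metalloprotease inhibitor, had 1.78, 2.11, 2.56 and 2.44 counts per 10000 in the pole and 5.66, 4.54, 10.2 and 7.65 in the middle class (log2 -1.55 ± 0.14, adjusted p = 5.84e-06). PLAUR, the urokinase receptor, rose by 0.41 ± 0.12. Of 25 genes of actin and contractility, 1 rose and 16 fell (median -0.32), with FLNA, a filamin, at -1.58 ± 0.16 and MYL6, a myosin light chain, at 0.22 ± 0.07. Targets of YAP and TAZ had 2 higher and 8 lower of 23 (median -0.44), and TGF-beta targets 0 higher and 6 lower of 18 (median -0.48). These lists differed between the experiments and comparisons. Within the low-resolution plates 6 of the YAP and TAZ targets were higher and 6 lower (median -0.13), within the high-resolution plates 1 and 9 (-0.28), and against the other cells of the epithelial side 4 and 3 (0.01). For TGF-beta targets the counts were 3 and 4 (-0.07), 0 and 12 (-0.82), and 2 and 4 (-0.09). In the low-resolution plates 10 of 28 matrix and 9 of 25 actin genes were lower, and in the high-resolution plates 20 of 27 and 18 of 25. Against the other cells of the epithelial side, 4 of 27 matrix genes were higher and 8 lower (median -0.21). For integrins the counts there were 2 and 5 of 12 (-0.19), for the plasminogen activator list 2 and 3 of 11 (-0.37), and for actin 1 and 9 of 25 (-0.19). Without high-resolution replicate 2, 5 of the YAP and TAZ targets and 10 of the actin genes were lower, and without high-resolution replicate 1, 9 of the actin genes.

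Of the epithelial panel without rule genes, 42 of 50 tested were higher and 2 lower (median 0.90), the exceptions being GDF15 (log2 -1.13 ± 0.18) and SORD (-0.59 ± 0.18). Of the mesenchymal panel, 43 of 49 were lower and 2 higher (median -1.32), with 21 of 47 lower within the low-resolution and 41 of 51 within the high-resolution plates. The 2 that were higher were CYP1B1, a cytochrome P450 (0.50 ± 0.11), and CDK14 (0.43 ± 0.11). All 4 metallothioneins tested were lower (median -1.88).

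**Figure D3:**
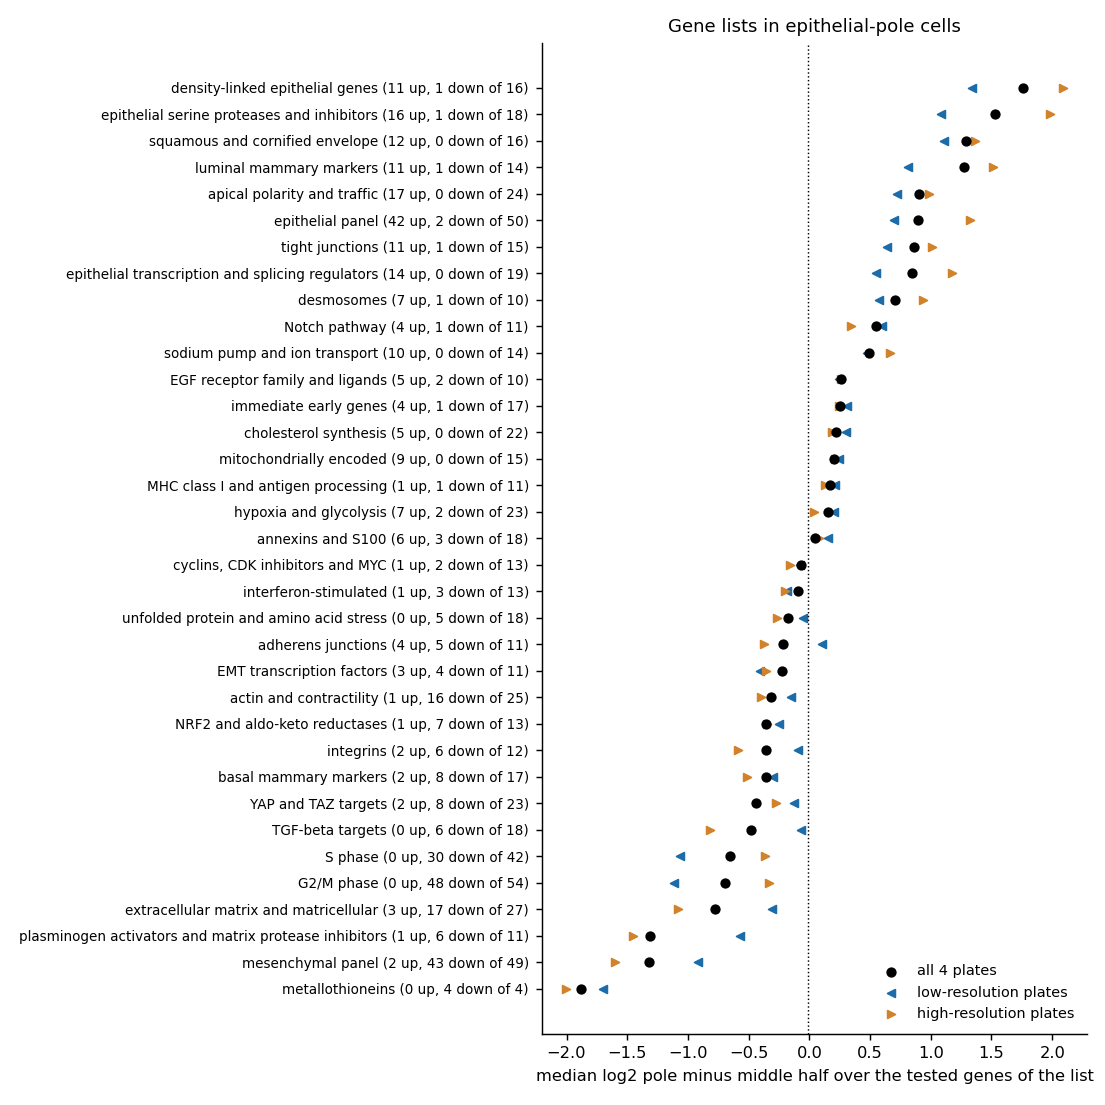
Median log2 difference between pole and middle class over the tested genes of each list (horizontal axis), for all 4 plates (black), the low-resolution plates (blue) and the high-resolution plates (orange), with counts of genes called up and down beside each name. The dotted line is the median of all genes. Medians of junction, protease and matrix lists lie further from 0 in the high-resolution plates, and those of the S phase and G2/M lists in the low-resolution plates.

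Cell cycle genes were lower in the pole. Of 54 G2/M genes tested 48 fell and 0 rose (median -0.70), and of 42 S phase genes 30 fell and 0 rose (median -0.65). KIF23, a kinesin of cell division, had 0.303, 0.250, 0.475 and 0.354 counts per 10000 in the pole and 0.713, 0.542, 0.591 and 0.803 in the middle class (log2 -0.87 ± 0.14, adjusted p = 3.55e-04). CDC6, a replication licensing factor, fell by 0.87 (SE 0.14). The G2/M median was -1.11 in the low-resolution and -0.33 in the high-resolution plates, and the S phase median -1.07 and -0.37. The number of G2/M genes called was 26 without low-resolution replicate 1, 23 without low-resolution replicate 2 and 20 without high-resolution replicate 2, and it was 52 without high-resolution replicate 1, with 0 rising each time. Among cells thinned to 10000 UMIs, 7 of 51 G2/M genes and 17 of 33 S phase genes were called lower, and 0 higher.

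Per cell, a G2/M score over 0 (mean level of the 54 genes above that of control genes) was found in 8 of 72, 8 of 67, 21 of 72 and 16 of 73 pole cells, or 11.1% (95% exact binomial interval 4.92 to 20.7%), 11.9% (5.30 to 22.2%), 29.2% (19.0 to 41.1%) and 21.9% (13.1 to 33.1%). The middle class had 28.6%, 30.7%, 39.5% and 44.2%. After thinning to 10000 UMIs the shares were 11.3%, 10.4%, 28.6% and 19.4% in the pole and 29.9%, 32.6%, 29.9% and 41.8% in the middle class, so that in high-resolution replicate 1 they differed by less than counting error. The median G2/M score was 0.0606 lower in the pole (SD 0.0587 over 4 plates, lower in 4 of 4) and the median S score 0.0561 lower (SD 0.0381, lower in 4 of 4). The exact two-sided sign-flip permutation test gave p = 0.125 for both, the smallest value that 4 plates allow. A cut of a score at 0 divides a range, and the shares are of cells above the cut, not of cycling cells.

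The share of mitochondrial counts was higher in the pole. Its median over cells was 33.6%, 32.7%, 33.8% and 32.5% in the pole, 29.7%, 31.4%, 29.5% and 28.2% in the middle class and 25.6%, 28.7%, 27.9% and 25.5% in the opposite pole. The mean difference from the middle class was 3.44 percentage points (SD 1.41, higher in 4 of 4 plates, exact sign-flip permutation p = 0.125). The order was the same on every plate. Cells above 40% had been left out, and with them kept the mean difference was 3.48 points. Of 15 mitochondrially encoded genes 9 were called higher and 0 lower (median log2 0.20), with 1 called without low-resolution replicate 1 and 3 without high-resolution replicate 2. MT-CO2, a subunit of cytochrome c oxidase, rose by 0.33 ± 0.07 (adjusted p = 0.00413). The part of the mitochondrial share in the other results was not tested. With mitochondrial genes left out of the library sizes, the counts of genes called moved little, to 1477 higher and 1511 lower.

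Total counts, features and counts per spike-in count showed no such order. The median total was 32527, 32818, 37059 and 34647 counts in the pole and 29045, 34493, 35472 and 45836 in the middle class. The pole was higher on 2 plates and lower on 2 (mean log2 ratio -0.06, SD 0.25, exact sign-flip permutation p = 0.75). The largest difference was in high-resolution replicate 2.

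**Figure D4:**
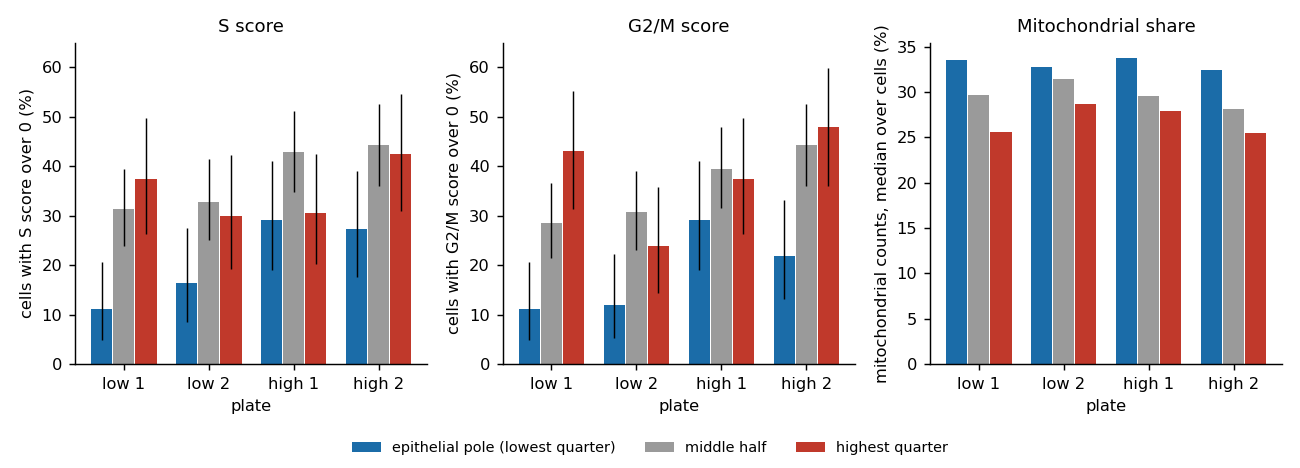
Percent of cells with an S score (left) and G2/M score (centre) over 0, with exact 95% binomial intervals, and median percent of mitochondrial counts (right), in the pole (blue), middle class (grey) and opposite pole (red) of each plate. The pole has the lowest share of cells over 0 for both scores and the highest mitochondrial share on all 4 plates.

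To set the pole apart from cells that were also epithelial by marker difference, it was compared with the other cells of the same plate with a value under 0 (101, 108, 42 and 51 cells, medians -0.75, -0.83, -0.53 and -0.42). This comparison was added after seeing the data. Of 10791 genes tested 1087 were higher in the pole (10.1%) and 1060 lower (9.82%). All 24 named genes kept their direction and call, which their choice by large differences in these same pole cells favoured. SPRR1B differed by 2.76 on the log2 scale, KLK7 by 2.29 and MT2A by -1.88. Kallikreins and other epithelial proteases again had 15 higher and 1 lower, and 47 of 54 G2/M genes and 35 of 42 S phase genes were lower. The mesenchymal panel had 13 lower and 2 higher of 47, and its median was -0.53 in place of -1.32.

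Within the low-resolution plates 1166 of 10472 genes were higher in the pole (11.1%) and 1067 lower (10.2%), and within the high-resolution plates 1431 of 10767 were higher (13.3%) and 1374 lower (12.8%). The 24 named genes kept their direction and call in each, which their choice by large differences with the same sign on all these plates favoured.

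The change from pole to middle class was then compared with that from middle class to opposite pole, which asks where along the marker difference a gene changed. The step between the 2 changes was tested in the same fit. Of 10590 genes, 7 lay above an even change (0.0661%) and 42 below (0.397%), with 592 and 1060 at an unadjusted p below 0.05. The 2 changes spanned unequal marker distances, which differed between the experiments: 0.767, 0.665, 1.73 and 1.42 from pole to middle class and 1.60, 1.88, 0.887 and 1.12 from there to the opposite pole. In simulated data with a step difference of 1 on the log2 scale, this test called 30% of the changed genes. The counts moved with single plates: 2, 12 and 1 genes lay above and 21, 107 and 11 below without low-resolution replicate 1, high-resolution replicate 1 and high-resolution replicate 2.

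CRYAB, a small heat shock protein, was high in the pole and lowest in the middle class of 3 plates. It had 0.889, 0.950, 0.725 and 0.811 counts per 10000 in the pole, 0.426, 0.571, 0.295 and 0.337 in the middle class and 0.668, 0.408, 0.542 and 0.535 in the opposite pole (difference between the steps 1.57 ± 0.27 on the log2 scale, adjusted p = 0.0208). GSN, the actin-severing protein gelsolin, was alike, with 0.509 to 0.593 in the pole, 0.313 to 0.395 in the middle class and 0.424 to 0.628 in the opposite pole (1.21 ± 0.22, adjusted p = 0.0242). In both genes the middle class lay below the pole on every plate.

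4 of the named genes below an even change were lower in the opposite pole than in both pole and middle class. Of these, S100A14, LAD1 and ESRP1 were also called higher in the pole than in the middle class (log2 0.89, 0.41 and 0.84). Against the other cells of the epithelial side they were not called, with log2 differences of 0.14, -0.18 and 0.20. S100A14, an epithelial S100 protein, had 4.98, 6.01, 6.05 and 6.16 counts per 10000 in the pole, 3.85, 4.72, 2.24 and 2.88 in the middle class and 0.195 to 0.289 in the opposite pole (-2.94 ± 0.26, adjusted p = 5.46e-05). LAD1, a basement membrane anchor protein, had 0.438 to 0.699, 0.384 to 0.563 and 0.0407 to 0.0585 (-2.83 ± 0.25). ESRP1, an epithelial splicing regulator, had 0.880 to 1.08, 0.349 to 0.774 and 0.0195 to 0.107 (-2.75 ± 0.35, adjusted p = 0.00183). KRT6B, a keratin of stressed squamous epithelium, was not called between pole and middle class (0.19 ± 0.21, adjusted p = 0.551) and had 0.0356 to 0.0420 counts per 10000 in the opposite pole. HEG1, a transmembrane receptor of the mesenchymal panel, was the other way round: it had 0.0242 to 0.0379 counts per 10000 in the pole, 0.254 to 0.418 in the middle class and 0.479 to 0.603 in the opposite pole (-2.35 ± 0.30). HEG1 thus changed mostly at the epithelial end.

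Whether the pole differed from the middle class by the same amount in both experiments was tested as an interaction. In the high-resolution plates 296 of 10590 genes had a higher pole-minus-middle difference (2.8%) and 1.28% a lower one. The comparison cells were not alike, since the middle class of the high-resolution plates was mostly on the mesenchymal side, and this cannot be told apart from a difference between the experiments in the pole. Against the other cells of the epithelial side, 46 genes were called higher, in place of 296, and 20 lower. The number also depended on single plates, and without high-resolution replicate 1 it was 48 higher and 14 lower. Both counts also fell by over 1.5 times without low-resolution replicate 2, to 68 for the lower one, and were 100 and 54 without high-resolution replicate 2, and without low-resolution replicate 1 the lower count was 75.

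KLK10, of the kallikrein cluster, had 5.56, 4.81, 5.25 and 4.22 counts per 10000 in the pole, at about the same level in both experiments, and 2.40, 2.63, 0.574 and 0.512 in the middle class. Its log2 difference was 1.14 in the low-resolution and 3.19 in the high-resolution plates (interaction 2.06 ± 0.14, adjusted p = 3.07e-08). HSD11B2, which inactivates cortisol, had 13.2, 14.4, 7.72 and 9.20 counts per 10000 in the pole and 6.21, 7.13, 1.21 and 0.950 in the middle class (1.92 ± 0.14). KLK5, KLK7 and AZGP1 had interactions of 1.94 ± 0.12, 2.07 ± 0.14 and 2.03 ± 0.15. In the last 4 genes the pole itself was lower on the high-resolution plates, and the middle class was lower still.

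CD55, a complement inhibitor, was higher in the pole of the low-resolution plates (log2 1.00, adjusted p = 1.66e-05) and lower in that of the high-resolution plates (-0.39, adjusted p = 0.00434). It had 1.69, 1.69, 1.02 and 0.912 counts per 10000 in the pole and 0.894, 0.918, 1.44 and 1.23 in the middle class (interaction -1.38 ± 0.13, adjusted p = 1.73e-06). LAMB3, a chain of the basement membrane laminin, changed sign in the same way (0.48 and -0.51, interaction -0.98 ± 0.12). ANPEP, an aminopeptidase, had 2.62, 3.01, 3.66 and 2.96 counts per 10000 in the pole and 3.26, 3.50, 7.91 and 6.51 in the middle class (-0.87 ± 0.10). HTRA1, a secreted serine protease, had a level of 0.319 to 0.385 in the pole of all plates, with 0.700 and 0.742 in the middle class of the low-resolution and 1.97 and 1.63 in that of the high-resolution plates (-1.33 ± 0.17). For LINC01057, a non-coding RNA, the log2 difference was 0.71 and -0.10 (interaction -0.79 ± 0.09).

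The pole cells were not uniform. Among 4021 genes found in at least 20% of pole cells on every plate, the 12 with the widest spread (variance over mean at 10000 UMIs per cell) were 6 mitochondrial genes and PSCA, KRT81, MALAT1, KLK7, KRT10 and KRT6A. PSCA had means of 36.6, 46.4, 22.5 and 21.6 UMIs per cell. Its 10th percentile was 7.0, 9.0, 2.0 and 2.0 UMIs and its 90th 78.0, 98.6, 52.1 and 48.7. Its variance was 25.5, 31.1, 43.5 and 46.6 times its mean, against 24.7, 27.7, 11.1 and 16.05 times in middle cells. Variance over mean rises with the mean at equal relative spread, and PSCA was more abundant in pole than in middle cells. These values therefore do not compare relative spread, and the ranking favours abundant genes. On both low-resolution plates the spread of KLK7 (21.7 and 17.3 against 33.3 and 29.7), MALAT1 (22.6 and 26.6 against 45.0 and 35.5) and KRT6A (7.40 and 16.9 against 13.97 and 20.8) was smaller in pole than in middle cells. KRT10, a keratin of the suprabasal epidermis, ranged from a 10th percentile of 1.0 to 2.0 to a 90th of 31.5 to 45.0 UMIs. KRT6A, a keratin of stressed and healing epidermis, had means of 8.86 and 10.3 UMIs in the low-resolution and 23.9 and 25.6 in the high-resolution plates, with single cells at 118.0. MALAT1, a nuclear non-coding RNA, had means of 78.5, 48.1, 41.9 and 35.8.

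**Figure D5:**
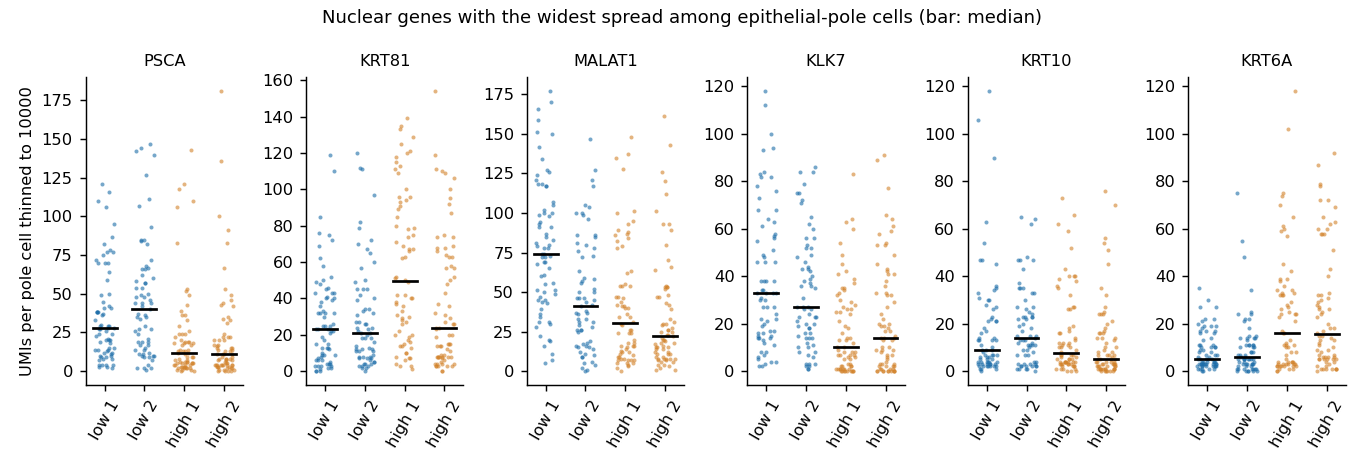
UMIs per pole cell after thinning to 10000 UMIs (vertical axis, separate scale for each gene) for the 6 nuclear genes with the widest spread, on the 4 plates, with 1 point per cell and a bar at the median. PSCA, KLK7 and MALAT1 are highest on the low-resolution plates and KRT6A on the high-resolution plates.

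Among pole cells, KRT6A correlated negatively with PSCA, KLK7 and MALAT1, but only weakly on the low-resolution plates. Across cells of a plate, Spearman's rho of KRT6A with PSCA was -0.16, -0.31, -0.61 and -0.49, with KLK7 -0.16, -0.21, -0.57 and -0.50, and with MALAT1 -0.27, -0.26, -0.60 and -0.67. KRT81, a hair keratin, and KRT6A went together, at 0.13, 0.15, 0.56 and 0.55. The cells (67 to 72 per plate) share plate and library, and these values are descriptions. They were weaker on both low-resolution plates. KRT6A also went against mitochondrial mRNAs, at -0.16, -0.22, -0.55 and -0.42 with MT-CYB and -0.13, -0.12, -0.66 and -0.42 with MT-CO2, and together with the ribosomal RNA MT-RNR1, at 0.02, 0.24, 0.34 and 0.49. The part of the mitochondrial transcripts in the KRT6A values was not tested. Mitochondrial mRNAs varied together, with the largest mean rho, 0.74, between MT-ATP6 and MT-CO2, whereas MT-RNR1 had a mean rho of -0.15 with MT-CO2 and -0.01 with MT-CO1.

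Defining markers of other cell types were low. Summed over the list, fibroblast markers had 0.0695 to 0.118 counts per 10000 in the pole and 0.0867 to 0.209 in the middle class, immune markers 0.402 to 0.962 and 0.239 to 0.543, and endothelial markers 0.194 to 0.307 and 0.152 to 0.238. In the immune list 74.1 to 91.4% of the pole's counts came from CD14, a co-receptor for lipopolysaccharide, which rose by 0.89 ± 0.19 (adjusted p = 0.00285). In the endothelial list KDR, a VEGF receptor, rose by 2.20 ± 0.30 (adjusted p = 0.000124). Its level in the pole was 0.101, 0.151, 0.0822 and 0.0416 counts per 10000. PECAM1 led the endothelial list in the pole of the high-resolution plates (73.2 and 78.6% of its counts), and KDR in that of the low-resolution plates (52.1 and 50.7%). FAP, of the fibroblast list, fell by 2.19 (SE 0.53), but COL1A1 gave 68.8 to 100% of the pole's counts in that list. COL1A2, COL3A1, LUM and THY1 of the fibroblast list, MS4A1 of the immune list and VWF, CDH5, TEK and CLDN5 of the endothelial list were at 0 in the pole of all 4 plates. Of each list only 2 genes had enough counts to test, and 1 of them was not called. Their part in the other results was not tested.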

How the data were processed

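The authors made single-cell count tables by SORT-seq, a plate method with molecular identifiers, from 4 plates of 384 wells. The submitters' processing notes name STAR 2.7.3a and Seurat 4. The deposited values are expected counts, that is UMI numbers corrected by the authors for identifiers drawn more than once, and whole UMIs were recovered from them with 4096 possible identifiers for thinning and for shares of cells. A well was used as a cell if it held 2000 to 9000 features and its mitochondrial share was below 40%. Levels are counts per 10000. No doublet caller was run.

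Expected counts were summed per plate and class, rounded to whole numbers, filtered with edgeR's default for low counts and tested with edgeR 4.0.16 in R 4.3.3 (quasi-likelihood test, TMM, Benjamini-Hochberg adjustment), with the plate as a block. Pole and middle cells of a plate share its sort and library, and their deviations from the class means correlated at 0.403 to 0.488. DESeq2 1.42.0, limma 3.58.1 and other filters, cell choices and plates were alternatives. Cell properties were compared by an exact sign-flip permutation test over 4 plates. Intervals for shares are exact binomial (95%) and cover counting error only. On simulated data for the pole against the middle class (10590 genes), 75% of genes changed by 1 on the log2 scale were recovered and 5 of 10190 unchanged genes were called.

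The members and gene lists were chosen with earlier results of these data known. Named were the rule genes, the 12 largest rises and 12 largest falls among genes called, with the same sign on all 4 plates and at least 0.5 counts per 10000 in the higher class, up to 3 called members per direction of each list by smallest p, up to 5 per direction for the step and experiment tests, and the 12 genes with the widest spread among pole cells. A few genes that these rules name are not reported here. KLK9, SPRR2D, ZEB1, KRT5 and KRT14 were added after their values were seen, as were any called exceptions named in the panels.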

Additional observations from a re-analysis of the deposited data

Results flagged for a closer look

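The pole-minus-middle difference of the genes listed here differed between the experiments by the interaction test of edgeR (log2, high minus low resolution, adjusted p below 0.05), the genes of the rule left out. Among the genes named for their largest rises and falls or for this test, it was higher in the high-resolution plates for KLK5 (1.94), KLK7 (2.07), KLK10 (2.06), HSD11B2 (1.92), AZGP1 (2.03), SLC6A14 (1.72), KLK6 (2.26), TCN1 (2.24), KLK8 (1.69) and CLDN8 (2.51). It was lower there for CD55 (-1.38), ANPEP (-0.87), LINC01057 (-0.79), LAMB3 (-0.98), HTRA1 (-1.33), SERPINE2 (-1.28) and TGM2 (-1.13). Among the other genes described, it was higher there for ALDH1A3 (1.62), CLDN4 (0.81), DSC2 (1.13), DSP (0.48), ELF3 (0.90), ESRP1 (0.69), FXYD3 (1.30), KLK9 (4.25), KRT10 (1.19), KRT15 (1.69), KRT5 (0.89), KRT6A (0.86), KRT6B (1.08), S100A14 (0.88) and SORD (0.99), and lower for ITGA5 (-1.16), ITGB1 (-0.67) and KRT81 (-0.59). The middle class lay at another marker difference in each experiment, and its part in these values cannot be told apart from that of the pole.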

How the results depend on the processing

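All 24 named genes kept direction and call in every alternative that gave a value, and SPRR3 had none after thinning. These genes were chosen for large called differences in these same plates, so this gives no independent support. Without the replicate block (the pairing by plate), 532 genes were higher and 442 lower in the pole, 0 lay above and 5 below an even change (214 and 411 at an unadjusted p under 0.05). In cells thinned to 10000 UMIs 766 were higher and 665 lower, in non-cycling cells 701 and 767, and with members chosen on one part of the UMIs 961 and 916. Leaving out 1 plate gave 1034 to 1278 higher and 909 to 1120 lower. Genes above an even change numbered 14 by DESeq2, 102 with no filter, 3 thinned, 76 with panel-chosen members, 48 with the lowest and highest 10% of cells, 42 with no mitochondrial limit, 1 with split UMIs, 249 in low- and 150 in high-resolution plates, and 1 to 12 without 1 plate. Genes below numbered 584 with no filter, 23 thinned, 202 with panel-chosen members, 109 with the lowest and highest 10% of cells, 89 in non-cycling cells, 131 with no mitochondrial limit, 4 by limma, 22 with split UMIs, 448 in low- and 315 in high-resolution plates, and 11 to 107 without 1 plate. The higher difference in high resolution was called for 96 genes by DESeq2, 98 thinned, 146 with the lowest and highest 10% of cells, 89 in non-cycling cells, 87 by limma, 180 with split UMIs, 46 against the other epithelial-side cells and 48 to 198 without 1 plate. The lower one was called for 56 by DESeq2, 249 with no filter, 31 thinned, 46 with the lowest and highest 10% of cells, 46 in non-cycling cells, 84 with split UMIs, 20 against the other epithelial-side cells and 14 to 75 without 1 plate. The cause of these changes was not tested, beyond the fewer genes tested after thinning (7420) and in non-cycling cells (9296). The log2 ratio of total counts turned to 0.0126 and the difference in features to 88.2 in non-cycling cells, and the log2 ratio per spike-in count to 0.0016 with no mitochondrial limit. Without 1 plate they ranged from -0.137 to 0.0516, -229 to 90.3 and -0.116 to 0.0901, positive without high-resolution replicate 2. With 4 plates no cell property could pass 0.05.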

Other observations

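Of 14 genes of the sodium pump and ion transport list 10 were higher in the pole and 0 lower (median log2 0.49), with FXYD3, a regulator of the sodium pump, at 1.92. Of 13 NRF2 targets and aldo-keto reductases 1 was higher and 7 lower (median -0.36), with AKR1B1, an aldose reductase, at -1.51. Among 13 interferon-stimulated genes 1 was higher and 3 lower (median -0.09). Among 22 cholesterol synthesis genes 5 were higher and 0 lower (median 0.22), with 3 higher without high-resolution replicate 2. Of 17 immediate early genes 4 were higher and 1 lower (median 0.25), and 7 were higher without high-resolution replicate 1. FOSB was at 1.00, FOS at 0.86 and FOSL1 at -0.69. Beside these counts, 13.9% of all genes tested were higher in the pole and 14.7% lower. The interferon, cholesterol and immediate early counts are descriptions only.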
